A study of Mus musculus with 12 samples.

Results

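Glucocorticoid-responsive genes and metallothioneins were followed in murine hip cartilage at 0 h and 4 h after injury. The set holds 7 genes, Fkbp5, Tsc22d3, Zbtb16, Nr3c1, Angptl4, Mt1 and Mt2, and every probe carrying one of these symbols was taken, whatever its level. The array holds 9 such probes among 45281, and 7 of them, from 6 of the 7 genes, are among the 21004 probes of the normalized table. RNA of C57BL6 mice, aged 4 to 6 weeks by the labels and 5 to 6 weeks by the methods, was hybridized to Illumina mouse BeadChips, arrays of probes on coated beads. The 12 arrays form 4 groups of 3, namely control and injured hips of WT mice and control and injured hips of Mapk9 KO mice, and each replicate pooled 6 hips of 3 animals. Mapk9 encodes a c-Jun N-terminal kinase, and the labels give the knockout by genotype only. The methods describe avulsion of the femoral epiphysis as the injury, after which a hip went straight into the freezer or stayed in serum-free medium for 4 h. The control hips are thus avulsed hips at 0 h, and the comparison is of 4 h after avulsion with 0 h. Over those 4 h the response to avulsion, the culture and the loss of circulating hormone cannot be told apart. Every array pools whole hip cartilage, and its RNA also held markers of muscle, blood cells and bone, as given below. A change in the proportion of a cell type and a change in RNA per cell therefore cannot be told apart either.

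Glucocorticoids enter cells and bind the receptor encoded by Nr3c1, which is held ready by heat shock protein chaperones and then moves to the nucleus to switch target genes on or off. Fkbp5, Tsc22d3 and Zbtb16 are widely used readouts of that receptor, and Angptl4 answers both to it and to fatty acid sensing receptors. The metallothioneins Mt1 and Mt2 are small cysteine-rich proteins that bind zinc and copper, and their genes are switched on by metals through the factor Mtf1 and also by glucocorticoids. In cartilage, glucocorticoids are known to restrain inflammatory and matrix-degrading responses, and zinc handling is linked to matrix-degrading enzymes.

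The start regions of Mt1 and Mt2 are shown because both hold the motif through which metals are known to act, and Mt1 also one for the hormone receptor. They were read from the RefSeq promoter table (GRCm38.p6), which had entries for Mt1, Mt2, Fkbp5 and Tsc22d3. Each runs from 250 bases before to 30 bases after the annotated start. Capitals mark the metal response element core (TGCACNC or TGCGCNC, either strand) and, in Mt1, a glucocorticoid response element, the palindrome of 2 half-sites set 3 bases apart, searched with 1 free base in each half-site. The motifs do not overlap. Mt2 lies at chr8:94172368-94172647 and Mt1 at chr8:94178839-94179118, both on the plus strand, and Mt3 and Mt4 lie next to them.
Mt2 start region: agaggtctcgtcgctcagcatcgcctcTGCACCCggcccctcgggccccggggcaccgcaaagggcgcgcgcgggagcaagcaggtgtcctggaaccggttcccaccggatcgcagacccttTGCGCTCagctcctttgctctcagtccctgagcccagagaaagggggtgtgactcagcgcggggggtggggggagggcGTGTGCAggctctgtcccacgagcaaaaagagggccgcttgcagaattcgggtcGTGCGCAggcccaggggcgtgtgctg
Mt1 start region: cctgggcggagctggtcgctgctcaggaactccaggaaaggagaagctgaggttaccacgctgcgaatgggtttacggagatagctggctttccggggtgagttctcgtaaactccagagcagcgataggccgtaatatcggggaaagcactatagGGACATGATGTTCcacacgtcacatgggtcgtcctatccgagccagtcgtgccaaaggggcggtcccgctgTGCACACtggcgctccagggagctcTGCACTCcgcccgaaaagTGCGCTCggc
The Mt2 window held 4 metal response cores and the Mt1 window 3. Of 32851 mouse promoters cut to the same length, 24.1% held at least 1 such core and 1.73% held 3 or more. The Mt1 window also held 1 glucocorticoid element, GGACATGATGTTC, a motif found in 0.435% of these promoters, and the Mt2 window held none. The window of Fkbp5 and the 3 windows of Tsc22d3 held neither motif. Bases outside these windows were not searched, so whether these genes have such elements elsewhere was not tested. An antioxidant response element (TGACNNNGC, either strand) was found in the Mt2 window as TGACTCAGC, against 11.5% of promoters.

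Tsc22d3 was measured by 2 probes, and their sequences are shown because they gave different results. One is listed under transcript variant 1 and begins at base 1972 of its transcript. The other is listed under transcript variant 2, begins at base 143, and carries the older name Dsip1 in the normalized table. The first 30 of their 50 bases follow.
Tsc22d3 variant 1 probe: tgatccctttggggtgtggaaaatgtaccc
Tsc22d3 variant 2 probe: ctatagcggcgcgccagcagccactcaaac
The longest run of bases that both probes share is 4. The probe annotation gives the variant 1 probe type A and the variant 2 probe type S, without defining these letters. Whether the variant 1 probe also binds other Tsc22d3 transcripts was not checked here. Variant 1 and variant 2 below therefore name the probes, and a difference between them is not shown to be one between transcripts. The Mt1 and Mt2 probes likewise share at most 4 bases in a row, although the 2 genes are close relatives.

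Values are the authors' normalized log2 intensities, and each change is injured minus control, or Mapk9 KO minus WT. Differences were tested with limma over all 21004 probes with Benjamini-Hochberg adjustment. A probe passed, and is called upregulated or downregulated, at an adjusted p under 0.05 with a fold change above 2. The interaction, which tests whether injury acted differently in the 2 genotypes, needed the adjusted p only. A probe counts as detected on an array when its deposited detection p-value is under 0.05. With 3 arrays against 3, an exact permutation test cannot give a two-sided p below 0.1. Both Mapk9 probes were downregulated in Mapk9 KO. The probe detected on all 12 arrays differed by log2 changes of -1.57 in control hips (limma adjusted p = 0.0151) and -1.57 in injured hips (adjusted p = 0.00485). The other was detected on 4 of 6 WT arrays and on 0 of 6 Mapk9 KO arrays. It was at least 1.92-fold lower in the knockout in control hips (limma adjusted p = 0.00244), and in injured hips (adjusted p = 0.00892) no fold is given, since the WT mean was itself under the lowest detected values. Between 16930 and 18969 probes were detected per array, and the array medians lay between 7.55 and 7.70. WT control replicate 3 stood apart. Without it, 412 probes (1.96%) passed between the control groups, against 25 with it, and 242 (1.15%) passed the interaction, against 0. No member probe changed its call in these 2 comparisons without that array.

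Post injury, both probes of Tsc22d3, Fkbp5 and Angptl4 were higher in both genotypes, while Mt1 was near its control level. In WT, 2 of the 7 member probes were upregulated, Tsc22d3 variant 2 and Angptl4, and none was downregulated. Over all probes, 7.55% were upregulated in WT. In Mapk9 KO, 1 of 7 was upregulated, Tsc22d3 variant 2, and none was downregulated, against 9.59% of all probes upregulated. Without the fold limit, 4 of the 7 passed upward in each genotype, the same 4 probes with all arrays in, against 12.6% of all probes in WT and 19% in Mapk9 KO. With the replicate number as a block, 6 of the 7 passed upward at any fold in Mapk9 KO, as Zbtb16 and Mt2 were added, against 22.1% of all probes, and the count in WT was again 4, against 14.5%. The median change of the 7 was 0.87 in WT and 0.71 in Mapk9 KO on the log2 scale, and over all probes it was -0.02 in both.

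**Figure D1:**
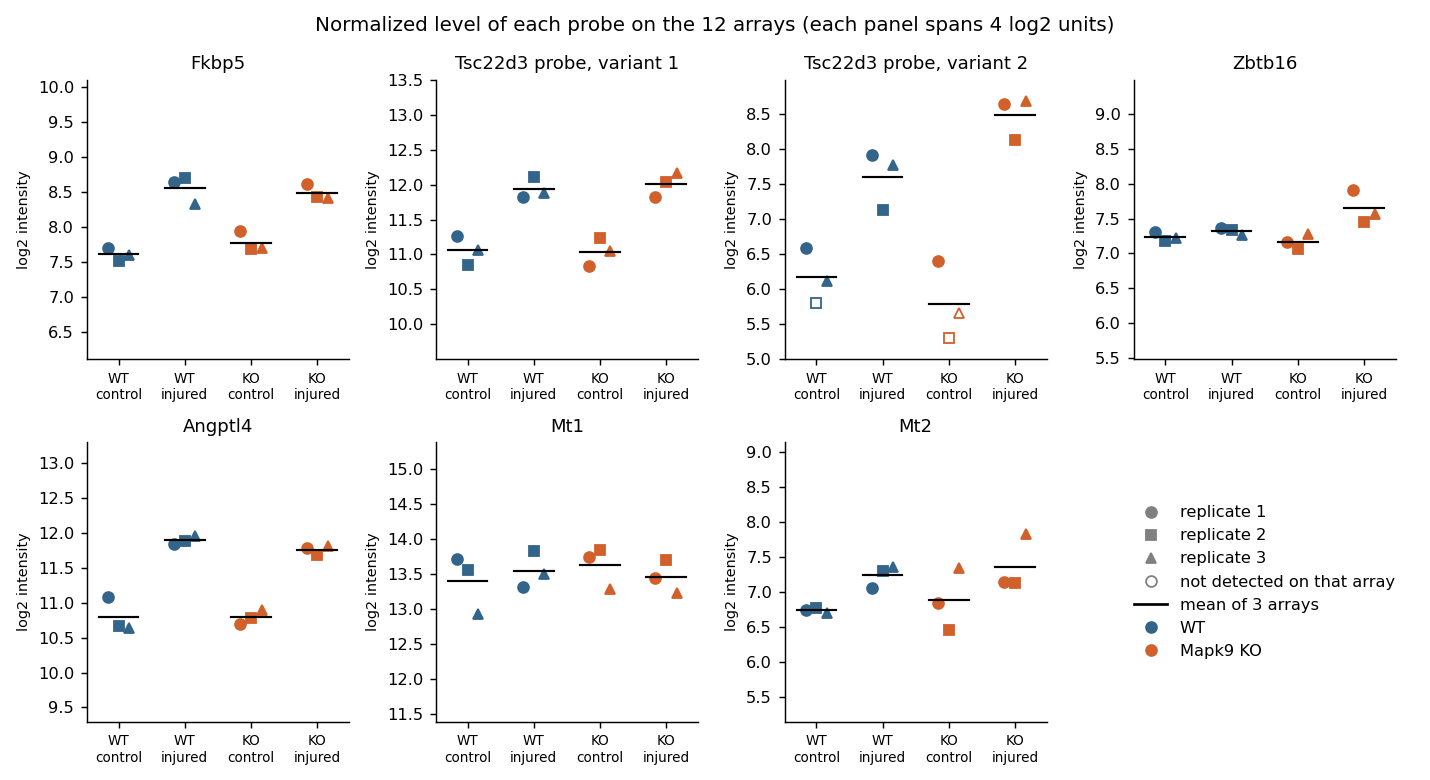
Log2 intensity of the 7 member probes on each of the 12 arrays, in 4 groups of 3, with a bar at each group mean and open symbols where the probe was not detected. Control and injured arrays are apart for Fkbp5, both Tsc22d3 probes and Angptl4 in both genotypes, while the Mt1 values of all 4 groups overlap. Arrays were apart upward for 20.3% of all probes in WT and 24.5% in Mapk9 KO.

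The receptor gene itself could not be followed. The Nr3c1 probe lay outside the normalized table and was detected on 1 of the 12 arrays, in the Mapk9 KO injured group, with a detection p-value of 0.0331. Its signal before normalization was 148 ± 41.3 in WT control, 139 ± 15.4 in WT injured, 139 ± 13.8 in Mapk9 KO control and 152 ± 44.2 in Mapk9 KO injured (SD, n = 3 each). These values do not show whether the receptor transcript changed, since this probe was not above background on the other arrays.

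Fkbp5 encodes a co-chaperone that binds the receptor complex and lowers its affinity for hormone. Its level was 7.70, 7.51 and 7.60 on the WT control arrays and 8.64, 8.70 and 8.33 on the WT injured arrays. In Mapk9 KO it was 7.94, 7.68 and 7.70 in control and 8.62, 8.43 and 8.42 in injured hips. All 6 injured arrays were above all 6 control arrays. Within a genotype, such upward separation held for 20.3% of all probes in WT and 24.5% in Mapk9 KO. The log2 change was 0.95 (SE 0.20, limma adjusted p = 0.00647) in WT and 0.71 (SE 0.17, adjusted p = 0.00716) in Mapk9 KO. Both lay under the fold limit, at 1.94-fold and 1.64-fold. Fkbp5 passed the limit in WT without WT control replicate 1, at a log2 change of 1.00, without WT injured replicate 3, at 1.07, and with array medians subtracted, at 1.00 (adjusted p = 0.00483).

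Tsc22d3, also known as Gilz, encodes a leucine zipper protein that carries part of the anti-inflammatory action of glucocorticoids. At the variant 1 probe its level was 11.26, 10.85 and 11.07 in WT control and 11.82, 12.10 and 11.88 in WT injured hips. In Mapk9 KO the variant 1 probe read 10.83, 11.23 and 11.05 in control and 11.83, 12.04 and 12.17 in injured hips. Here, too, no injured array overlapped with a control array, beside the same shares of all probes as for Fkbp5. The variant 1 probe changed by 0.87 (SE 0.20, limma adjusted p = 0.0111) in WT and by 0.97 (SE 0.18, adjusted p = 0.00186) in Mapk9 KO, which is 1.83-fold and 1.96-fold. It passed the fold limit in Mapk9 KO without control replicate 2 or without injured replicate 1, at 1.07 each time. Without WT injured replicate 2 its change in WT was 0.79 (adjusted p = 0.0553), and variant 1 then did not pass at any fold.

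The variant 2 probe of Tsc22d3 changed more. Its level was 6.59, 5.79 and 6.11 in WT control and 7.92, 7.13 and 7.78 in WT injured hips. In the knockout it was 6.40, 5.29 and 5.66 in control and 8.64, 8.12 and 8.69 in injured hips. It was detected on 2 of 3 WT control arrays, on 1 of 3 Mapk9 KO control arrays and on all 6 injured arrays, so the control levels lie near background. The variant 2 probe was upregulated 2.71-fold in WT (log2 change 1.44, SE 0.28, limma adjusted p = 0.00434) and 6.51-fold in Mapk9 KO (log2 change 2.70, SE 0.28, adjusted p = 3.05e-05). As an alternative chosen after the data were seen, values of undetected probes were raised to the lowest detected value of their array, and the log2 changes of variant 2 were then 1.41 in WT (adjusted p = 0.00223) and 2.43 in Mapk9 KO (adjusted p = 6.51e-07). With quantile normalization and no background correction they were 0.78 in WT, under the fold limit, and 1.51 in Mapk9 KO. By the methods' t-test with the same adjustment, variant 2 did not pass in WT (adjusted p = 0.0746).

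**Figure D2:**
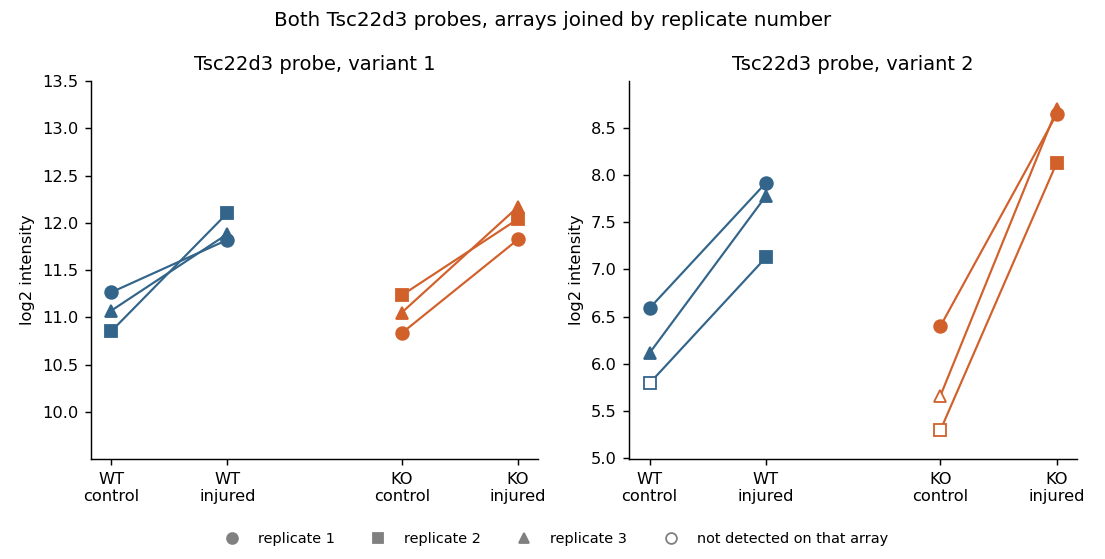
Log2 intensity of the variant 1 probe (left) and the variant 2 probe (right) of Tsc22d3 in control and injured hips of WT and Mapk9 KO, with lines joining arrays of the same replicate number. Open symbols were not detected. At variant 2 the 3 Mapk9 KO lines rise by 2.24 to 3.03 log2 units and the 3 WT lines by 1.33 to 1.66, while at variant 1 the lines of both genotypes rise by 0.56 to 1.25.

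The change of variant 2 was then compared between genotypes. The injury change was larger in Mapk9 KO than in WT by 1.26 on the log2 scale (SE 0.43, unadjusted p = 0.0106 and adjusted p = 0.368, limma interaction over 12 arrays), which did not pass. Same-numbered samples deviate together in these data. With the replicate number as a block the SE was 0.23 and the interaction passed (adjusted p = 0.0457). With a block on the sample code's number instead, it did not (SE 0.42, limma adjusted p = 0.320). Without a block 0 probes passed the limma interaction, with 2088 (9.94%) at an unadjusted p under 0.05, and 0 passed with the sample code block. With the replicate block 112 did, or 0.533% of all probes, 102 upward and 10 downward. With undetected values raised as above, which touches only control arrays here, the difference was 1.02 (SE 0.35, adjusted p = 0.330), and with the block as well the SE was 0.21 and the adjusted p 0.0335. With each array left out in turn and no block, the difference from the deposited values lay between 1.02 and 1.57. In injured hips alone, variant 2 was higher in Mapk9 KO than in WT in 3 of 3 same-numbered pairs, by 0.88 (SE 0.24, adjusted p = 0.229, with the replicate block 0.0443, with the sample code block 0.232), or 1.84-fold, under the fold limit in each of these fits. In control hips it differed by -0.38 (SE 0.31, adjusted p = 0.928), and by -0.14 with undetected values raised (adjusted p = 0.972).

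Zbtb16 encodes a zinc finger repressor that glucocorticoids induce in many cell types. Its probe was designed on a predicted transcript. Its level was 7.30, 7.17 and 7.23 in WT control and 7.37, 7.34 and 7.27 in WT injured hips. In the knockout it was 7.17, 7.06 and 7.28 in control and 7.92, 7.45 and 7.57 in injured hips. The WT groups overlapped and the Mapk9 KO groups did not, as was the case for 24.5% of all probes in the upward direction in Mapk9 KO. The log2 change was 0.09 in WT (95% interval -0.32 to 0.50, limma adjusted p = 0.761) and 0.48 in Mapk9 KO (95% interval 0.07 to 0.88, adjusted p = 0.0642). Neither passed, nor did their difference of 0.38 (SE 0.23, adjusted p = 0.618). With the replicate block the adjusted p in Mapk9 KO was 0.0422 (SE 0.15), at 1.39-fold and so under the fold limit, and in WT it was 0.713. In Mapk9 KO the adjusted p of Zbtb16 was also under 0.05, at 0.0306 to 0.0390, with normexp background correction, with quantile normalization alone, with all 12 arrays in the fit and with undetected values raised, with and without the block, and it was under the fold limit each time.

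Angptl4 encodes a secreted inhibitor of lipoprotein lipase, the enzyme that frees fatty acids from circulating fat. Its main probe read 11.08, 10.66 and 10.64 in WT control and 11.84, 11.88 and 11.96 in WT injured hips. In Mapk9 KO it read 10.69, 10.78 and 10.90 in control and 11.78, 11.68 and 11.81 in injured hips. Every injured array lay above every control array, again beside the shares of all probes given for Fkbp5. Angptl4 was upregulated 2.14-fold in WT (log2 change 1.10, SE 0.20, limma adjusted p = 0.00361), and in Mapk9 KO the change was 1.95-fold (log2 change 0.97, SE 0.16, adjusted p = 0.000937), just under the fold limit. The call rests on that limit. In WT the log2 change was 0.92 with normexp background correction and 0.88 with quantile normalization alone, both under it, and in Mapk9 KO it was 1.02 without control replicate 3 and 1.01 without injured replicate 2, both above it. A second Angptl4 probe lay outside the normalized table and was detected on none of the 12 arrays, with signals of 126 to 198. Over the 12 arrays, the profiles closest to Angptl4 after centring each on its own mean were those of Wdr74 (root mean square distance 0.0794), 1700066F09Rik (0.112) and Slc4a7 (0.114). Among the members the closest pair was Angptl4 and the Tsc22d3 variant 1 probe, at 0.165, while the 2 Tsc22d3 probes were 0.778 apart.

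Neither metallothionein passed the fold and p threshold in either genotype. Mt1 read 13.72, 13.56 and 12.93 in WT control and 13.31, 13.83 and 13.50 in WT injured hips. In Mapk9 KO it read 13.74, 13.85 and 13.29 in control and 13.44, 13.70 and 13.23 in injured hips. The groups overlapped throughout, and the lowest value was that of WT control replicate 3. The log2 change was 0.15 in WT (95% interval -0.42 to 0.71, limma adjusted p = 0.723) and -0.17 in Mapk9 KO (95% interval -0.63 to 0.29, adjusted p = 0.569). Changes of 2-fold or more in either direction lie outside both intervals. The WT value turned to -0.09 without WT control replicate 3. In Mapk9 KO all same-numbered pairs were lower in the injured hips, at -0.30 to -0.055, while in WT the pair differences ran from -0.40 to 0.57. The Mt1 signal before normalization was 9860 to 16877, and whether it was limited by the upper end of the scanner's range was not tested.

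Mt2 read 6.74, 6.76 and 6.70 in WT control and 7.06, 7.30 and 7.35 in WT injured hips. The knockout values were 6.85, 6.46 and 7.34 in control and 7.14, 7.12 and 7.82 in injured hips. In WT the groups did not overlap, as was the case for 20.3% of all probes in the upward direction, and in Mapk9 KO they did. Each of the 6 same-numbered pairs was higher in the injured hips, by 0.29 to 0.67. The log2 change was 0.50 in WT (SE 0.19, limma adjusted p = 0.0814) and 0.48 in Mapk9 KO (SE 0.27, adjusted p = 0.183), and neither passed. With the replicate block the adjusted p was 0.0351 (SE 0.15) in Mapk9 KO, where the change of 1.39-fold lay under the fold limit, and 0.0688 in WT. In WT the adjusted p of Mt2 was under 0.05 with normexp background correction (0.0284), with quantile normalization alone (0.0458), by the methods' t-test (0.0489) and with undetected values raised and the replicate block (0.0419), each time under the fold limit. In Mapk9 KO the Mt2 change was 0.25 without injured replicate 3 and 0.27 without control replicate 2. The Mt1 and Mt2 profiles were 0.502 apart as root mean square distance.

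**Figure D3:**
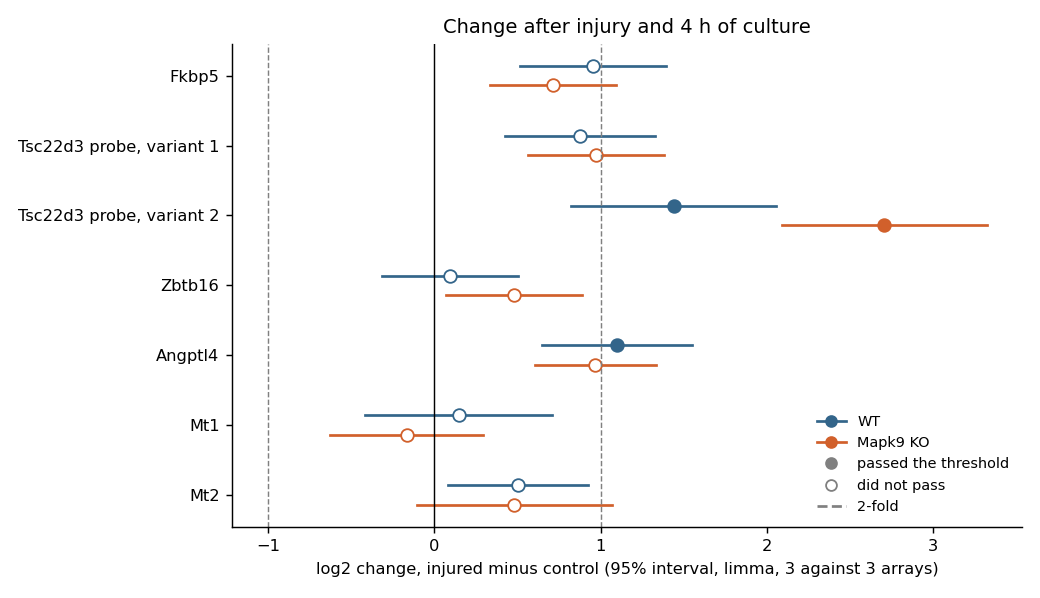
Log2 change post injury with its 95% interval from limma for the 7 member probes in WT and Mapk9 KO, filled where the probe passed and open where it did not, with dashed lines at 2-fold. The intervals of Fkbp5, both Tsc22d3 probes and Angptl4 lie above 0 in both genotypes, those of Mt1 span 0, and the largest change is that of Tsc22d3 variant 2 in Mapk9 KO at 2.70.

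Over both genotypes together, 2 of the 7 probes were upregulated, Tsc22d3 variant 2 (log2 change 2.07) and Angptl4 (1.03), against 8.06% of all probes. Angptl4 fell under the fold limit there without WT control replicate 2 or 3, at log2 changes of 1.00 and 0.99. Without the fold limit 5 passed, against 22.6% of all probes upward, as Fkbp5 (0.83), Tsc22d3 variant 1 (0.92) and Mt2 (0.49, SE 0.17, limma adjusted p = 0.0269) were added. Mt2 did not pass there when any of 4 arrays was left out, Mapk9 KO control 2, Mapk9 KO injured 3, WT injured 2 or WT injured 3 (adjusted p 0.0531 to 0.0747). With the replicate block 6 did, against 26% of all probes, as Zbtb16 was added too (0.28, adjusted p = 0.0291, and 0.0605 without the block). Between genotypes, no member probe passed in control hips, where 0.119% of all probes did, or in injured hips, where 0.181% did. Over all probes in injured hips, 15 passed upward and 23 downward. With the replicate block these counts were 156 and 32, and without WT injured replicate 1 they were 118 and 36. The genotype differences of the members ranged from -0.38 to 0.23 in control hips and from -0.13 to 0.88 in injured hips. Tsc22d3 variant 2, not detected on 3 of 6 control arrays, gave the lowest of the first and, on arrays that all detected it, the highest of the second. Apart from variant 2, the interactions lay between -0.31 and 0.38, each with an interval that held 0.

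Among 16 genes of glucocorticoid supply and receptor machinery, 13 were measured, and 2 were upregulated and none downregulated in each genotype, against 7.58% of all genes upregulated in WT and 8.95% in Mapk9 KO by their main probe. The median change of the list was 0.12 in WT and 0.14 in Mapk9 KO. Hsd11b1, the enzyme that regenerates active glucocorticoid from its inactive form inside cells, was upregulated in WT from 9.09 ± 0.61 to 11.5 ± 0.31 (SD, n = 3, log2 change 2.41, SE 0.31, limma adjusted p = 0.000422). In Mapk9 KO it was upregulated from 9.96 ± 0.19 to 11.8 ± 0.34 (log2 change 1.84, SE 0.21, adjusted p = 6.46e-05). All 4 Hsd11b1 probes were upregulated in both genotypes. Hsp90aa1, a chaperone of the unbound receptor among many other proteins, was upregulated by 1.25 (adjusted p = 0.00174) and 1.51 (adjusted p = 0.000191). Hsd11b2, the opposing enzyme, and the mineralocorticoid receptor gene Nr3c2 were not in the normalized table.

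Of 30 other genes known to be induced by glucocorticoids, 26 were measured. In WT, 9 were upregulated and 1 downregulated, with a median change of 0.49, and in Mapk9 KO 10 were upregulated and 4 downregulated, with a median of 0.65. Of all genes, 7.58% were upregulated and 7.2% downregulated in WT, and 8.95% and 9.69% in Mapk9 KO. Il1r2, a decoy receptor for interleukin-1, rose by 4.23 in WT (limma adjusted p = 3.08e-05) and by 3.47 in Mapk9 KO (adjusted p = 1.15e-06), and was detected on 1 of 3 WT control arrays. With undetected values raised as for Tsc22d3, the WT change of Il1r2 was 4.02. Ddit4, an inhibitor of the growth kinase complex mTORC1, rose by 2.87 and 2.83 (adjusted p = 2.81e-05 and 2.07e-06). Per1, a component of the circadian clock, rose by 2.42 and 2.88, and Errfi1, an inhibitor of the epidermal growth factor receptor, by 2.37 and 2.80. Sult1a1, a sulfotransferase, was downregulated by a log2 change of -1.69 in WT and -2.15 in Mapk9 KO. Without WT control replicate 2, 3 genes of the list were downregulated in WT. Many of these genes also answer to stress, inflammatory or growth signals.

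**Figure D4:**
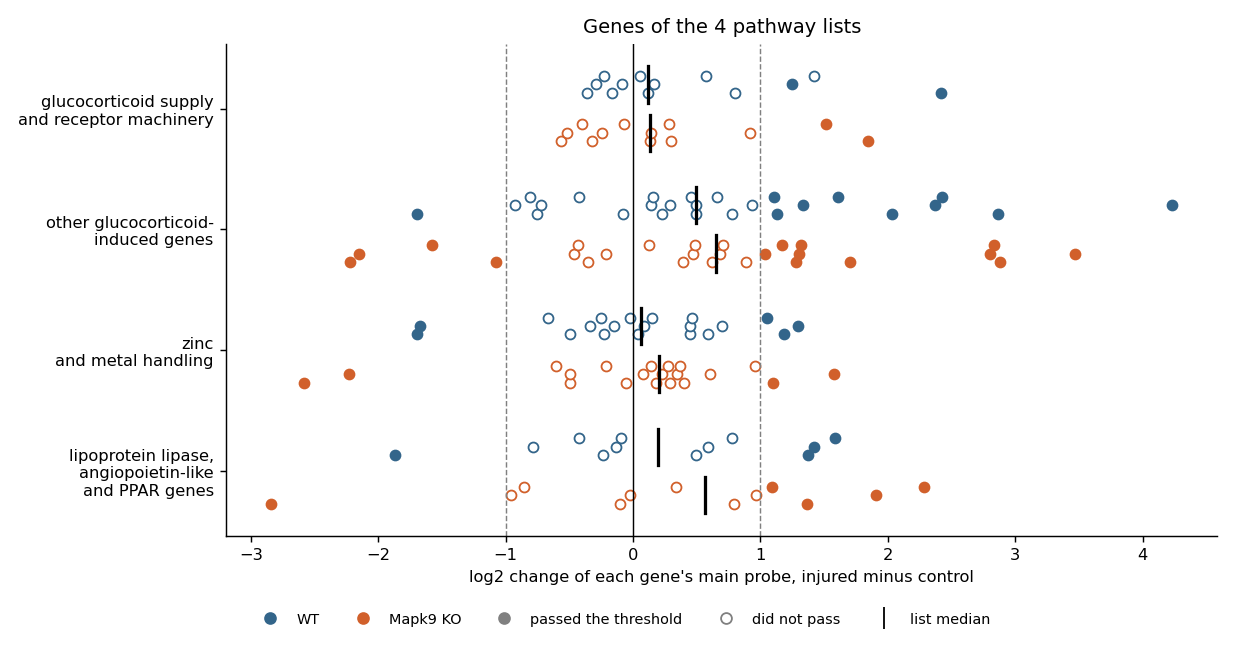
Log2 change post injury of the main probe of each measured gene in 4 lists, in WT and Mapk9 KO, filled where the gene passed, with a bar at the list median and dashed lines at 2-fold. Il1r2 in WT, detected on 1 of 3 control arrays, is plotted at 4.23, and the medians of the 8 rows lie between 0.06 and 0.65.

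Of 27 genes of zinc and metal handling, 20 were measured. In WT 3 were upregulated and 2 downregulated, in Mapk9 KO 2 and 2, and the list medians were 0.06 and 0.20. Of all genes, 7.58% were upregulated and 7.2% downregulated in WT, and 8.95% and 9.69% in Mapk9 KO, so the Mapk9 KO counts and the downward count in WT lie near the background and say nothing particular of metal handling. The upward count in WT is not read as a result on metal handling either. It includes Slc39a14 and Slc39a4, undetected on all control arrays, and it fell with the alternatives given at the end of this paragraph. Mt3, the metallothionein gene next to Mt2, was downregulated in WT from 10.7 ± 0.32 to 9.02 ± 0.33 (log2 change -1.70, limma adjusted p = 0.000927) and in Mapk9 KO from 10.8 ± 0.34 to 8.22 ± 0.25 (log2 change -2.58, adjusted p = 7.14e-06). Slc39a14, a zinc importer known from inflammation, was undetected on all control arrays and rose at least 1.43-fold in WT (adjusted p = 0.00233) and at least 1.70-fold in Mapk9 KO (adjusted p = 0.000392). The importer Slc39a4 was also undetected on all control arrays and rose at least 1.43-fold in WT (adjusted p = 0.00148) and at least 1.22-fold in Mapk9 KO (adjusted p = 0.00366), where 2 of 3 injured arrays detected it. For these bounds, each array of the group without detection was given its lowest detected value where that was higher than the measured one, and the other group was taken as measured on all 3 arrays. Slc39a11 rose by 1.05 in WT and by 0.96, under the fold limit, in Mapk9 KO. Slc30a10, a manganese exporter, was undetected on all injured arrays and fell at least 1.25-fold in WT (adjusted p = 0.00346), where 2 of 3 control arrays detected it, and at least 1.38-fold in Mapk9 KO (adjusted p = 3.42e-06). Mtf1, the metal-sensing factor that drives Mt1 and Mt2, changed by 0.70 in WT (adjusted p = 0.0482) and 0.40 in Mapk9 KO (adjusted p = 0.134), both under the fold limit. With quantile normalization and no background correction none of the list was upregulated. With undetected values raised, 1 gene was upregulated and 1 downregulated in WT, and 0 and 1 in Mapk9 KO, and Slc30a10 in WT was at an adjusted p of 0.163.

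Of 15 genes around Angptl4, lipoprotein lipase and the fatty acid sensing receptors, 12 were measured. In WT 3 were upregulated and 1 downregulated, in Mapk9 KO 4 and 1, and the medians were 0.20 and 0.56, beside the same shares of all genes. Lpl, the lipase that Angptl4 inhibits, was downregulated by a log2 change of -1.87 in WT (limma adjusted p = 0.000534) and -2.84 in Mapk9 KO (adjusted p = 1.38e-06). Ppard, a fatty acid sensing receptor for which Angptl4 is a known target, was upregulated by 1.42 (adjusted p = 0.00554) and 1.37 (adjusted p = 0.000175). Plin2, a lipid droplet coat protein, rose by 1.59 and 1.91. Rxra, the partner receptor of Ppard, was detected on 1 of 3 WT control arrays and on no Mapk9 KO control array, and changed by 1.37 in WT (adjusted p = 0.00626), or by 0.98 and so under the fold limit with undetected values raised, and rose at least 1.77-fold in Mapk9 KO (adjusted p = 0.00221).

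Markers of cell types moved with injury as well. Of 10 chondrocyte markers measured, 7 were upregulated in each genotype, with a median change of 1.22 in WT and 1.41 in Mapk9 KO, and their summed level (log2 of the sum) was 15.39 to 16.02 in WT control, 16.34 to 16.62 in WT injured, 15.26 to 15.95 in Mapk9 KO control and 16.20 to 16.52 in Mapk9 KO injured hips. Of 12 skeletal muscle markers, 11 were downregulated in WT and 12 in Mapk9 KO, with summed levels of 16.2 to 16.6 in WT control, 13.3 to 15.2 in WT injured, 16.8 to 17.5 in Mapk9 KO control and 13.68 to 14.97 in Mapk9 KO injured hips. Of 8 macrophage markers 7 and 8 were downregulated, with summed levels of 12.3 to 12.9, 10.7 to 11.3, 12.6 to 12.7 and 10.5 to 10.8 in the same order. Of 6 adipocyte markers 2 and 4 were downregulated, with 11.3 to 12.8, 9.42 to 10.1, 12.3 to 13.8 and 9.08 to 9.62. Of 8 neutrophil markers 3 and 2 were upregulated, with 15.6 to 16.4, 16.6 to 16.9, 16.002 to 16.5 and 16.4 to 16.8. Of 7 erythroid markers, 3 were downregulated in WT and 2 in Mapk9 KO, and none was upregulated. Of 7 endothelial markers, 1 was upregulated in WT and none passed in Mapk9 KO. Of 7 osteoblast markers, 1 was upregulated and 2 downregulated in each genotype. All these counts stand beside the same shares of all genes as above, 7.58% upregulated and 7.2% downregulated in WT and 8.95% and 9.69% in Mapk9 KO. Each measured marker was detected on at least 1 array, but 4 of the 6 adipocyte markers lay mostly at background, with Plin1 and Lipe detected on 1, Cidec on 2 and Lep on 4 of 12 arrays. Of the 2 adipocyte markers downregulated in WT, Cidec was detected on 1 of 3 control arrays and on no injured array. The median shift of the chondrocyte markers was larger than the changes of Fkbp5, Tsc22d3 variant 1 and Angptl4 and smaller than those of Tsc22d3 variant 2, and the falls in muscle, macrophage and adipocyte markers ran the same way as Lpl. The part of the cell makeup in the changes of the members was not tested.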

How the data were processed

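RNA of 12 samples was hybridized as biotin-labelled cRNA. The deposited signal table holds uncorrected bead intensities of 45281 probes, each with a detection p-value. From these the authors subtracted array-specific background and applied vsn, and the deposited log2 table holds 21004 probes. Groups and replicate numbers were taken from the labels. Members were matched by symbol in either table, and list genes also through RefSeq accessions and older symbols (GRCm38.p6 gene table). The members and all gene lists were chosen with earlier results of these data known.

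Tests were run in R 4.3.3 with limma 3.58.1 (lmFit, eBayes), and p-values were adjusted by Benjamini-Hochberg over the 21004 probes. Injury and genotype were each tested on the 6 arrays compared, and the interaction and the average over 12. A gene's main probe is the one with the highest mean. Named list genes are up to 4 that passed in WT with the largest change in each direction, and Mtf1, Hsd11b2 and Nr3c2, which were added outside that rule. Deviations from the group means correlated at 0.153 to 0.390 over 18 same-numbered pairs and at -0.289 to 0.0825 over 36 others. Centring each group on its own mean ties the second range to the first, so it is not separate support. Replicate numbers were taken as pairing the samples in the same-numbered pairs and the replicate block, while the reported calls were made without a block. Alternatives were normexp with quantile normalization (neqc, offset 16), quantile normalization alone, array medians subtracted, a filter on detection on at least 3 arrays, a fit on all 12, the replicate block, the label code number as a block, the methods' t-test, 1 probe per symbol, each array left out and, added after the data were seen, undetected values raised to the lowest detected value of their array, with and without the block. The number of arrays limits the precision.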

Additional observations from a re-analysis of the deposited data

How the results depend on the processing

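The 2 member probes upregulated in WT became 1 with neqc, 0 with quantile normalization alone, 1 with the methods' t-test and 1 with 1 probe per symbol, and lay between 2 and 3 with each array left out. The 1 probe in Mapk9 KO became 0 with 1 probe per symbol, which leaves out the Tsc22d3 variant 2 probe by construction, and lay between 1 and 2 with each array left out. The 2 probes over both genotypes became 1 with neqc, 1 with quantile normalization alone and 1 with 1 probe per symbol, and lay between 1 and 2. The 0 interactions became 1 with the replicate block, which changed no other member's call at the fold and p threshold, and 1 with undetected values raised and the replicate block. The cause of these moves was otherwise not tested. The Mt1 change in WT turned to -0.14 with neqc and -0.14 with quantile normalization alone, and lay between -0.091 and 0.30 with each array left out. The interaction of Angptl4 turned from -0.13 to 0.0055 with neqc and 0.0048 with quantile normalization alone. With each array left out, the interaction lay between -0.0041 and 0.20 for Tsc22d3 variant 1 (0.10 with all arrays) and between -0.25 and 0.21 for Mt2. In the tally below, member changes between genotypes in control hips are left out. Those in injured hips are kept only for Tsc22d3 variant 2 and Zbtb16. The average injury change of Mt1 and Zbtb16 is left out too. Some of these lay near 0, as Mt1 on average (-0.011) and Angptl4 in control hips (-0.0037), so sign changes among them are not counted. Of 901 values in the tally, 832 kept their direction and their side of the threshold or, for counts, stayed within 1.5 times. Of the rest, 40 counts moved further, 12 changed sign, 9 came to pass the threshold and 8 no longer passed it. Detection at background limits the Nr3c1, second Angptl4 and control Tsc22d3 variant 2 values.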
